A study of Mus musculus with 53 samples.

Results

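The postsynaptic density scaffolds are the proteins that hold receptors, adhesion molecules and signalling enzymes in place under the membrane of excitatory synapses. The 9 genes described here are the membrane-associated guanylate kinases (MAGUKs) Dlg1, Dlg2, Dlg3 and Dlg4, the linker gene Dlgap1, the Shank genes Shank1, Shank2 and Shank3, and Homer1. They are members by name, under a rule that uses no measured value, among 37991 gene IDs listed for mouse embryonic cortex, and all 9 were found. Earlier results of these data were known when they were chosen. The rule also names Syngap genes, but none is among the 9. In the density, MAGUKs lie closest to the membrane and bind glutamate receptors through PDZ domains. Dlgap proteins (also called GKAP or SAPAP) bind the MAGUKs, Shank proteins bind the Dlgap proteins, and Homer proteins bind Shank and, outside it, group I metabotropic glutamate receptors. Excitatory synapses are few in the embryonic cortex and form mostly after birth, so these transcripts are measured here well before the main period of synapse formation.

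The series holds 53 RNA-seq libraries in 19 groups, made to study histone turnover with neuronal activity and adult plasticity. The values used here come from its E16.5 cortex group, cortical tissue of unstimulated C57bl/6 embryos, with no genetic construct named. The labels give this group 3 libraries, and the authors' deposited value for each gene is a single mean, so no value below has an SD, no spread between animals is known and no test between groups was made. The unit is RPKM, reads scaled to a kilobase of gene length and to a library of a fixed size. The other 50 libraries are not analysed here. In such bulk tissue, fewer cells of a type and less RNA per cell cannot be told apart.

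The low values show how the RPKM was made, which bears on every level below. Multiplied by gene span, from the first to the last base with introns, 661 of 760 low values of multi-exon genes (87.0%) fell within 0.5% of 3 narrow peaks, read as the worth of a single read in each of 3 libraries. An even spread would give 3.94%. With the union of exons as the length, and peaks sought anew for it, 52 of 843 (6.17%) did so, and with the longest transcript 40 of 864 (4.63%). From the span peaks the libraries came to 51.3, 64.8 and 71.6 M reads. Marker genes of cortex (Fabp7, Sox2, Neurog2, Eomes, Neurod6, Tbr1 and Fezf2) stood between 15.4 and 194 RPKM, all 7 at 1 RPKM or more. Those of other cells ranged from 0.0670 RPKM for Ttr of the choroid plexus and 0.942 for C1qa of microglia to 17.3 for Cldn5 of endothelium, with Mog of myelin at 1.02, Olig1 of the oligodendrocyte lineage at 6.50, Aldoc of astrocytes at 17.4 and Hba-a1 of red blood cells at 53.6 RPKM. Per kilobase of exon, a scale explained below, Mog came to 7.56 and Olig1 to 6.50, so their order rests on the length used. Markers of cortex and of other cells had median spans of 3.57 and 2.89 kb, against 105 kb for the scaffold genes. The part of those other cells in the scaffold values was not tested.

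Transcripts of all 9 scaffold genes were present, and Dlg4, Shank1 and Dlg3 led by RPKM, per kilobase of exon and per kilobase of the longest transcript. Per kilobase of coding sequence the highest were instead Dlg4 (96.9), Homer1 (75.8) and Dlg2 (38.2), before Dlg3 (37.9) and Shank1 (31.95). Dlg4, which encodes PSD-95, the most abundant MAGUK of the adult excitatory synapse, stood at 7.29 RPKM. Shank1, the Shank gene expressed chiefly in brain, stood at 4.13 RPKM. Dlg3, which encodes SAP102, a MAGUK known from developing synapses, stood at 1.90 RPKM. The other 6 were below 1 RPKM: Homer1 at 0.797, Shank3 at 0.661, Dlg1 at 0.312, Shank2 at 0.203, Dlgap1 at 0.0999 and Dlg2 at 0.0556 RPKM. Thus 3 of 9 genes reached 1 RPKM, where 18.8% of all gene IDs and 31.6% of protein-coding genes did. At 0.5 RPKM 5 of 9 passed, against 24.8% of all gene IDs and 41.1% of protein-coding genes, and at 2 RPKM 2 of 9 passed, against 12.5% and 21.3%. The median of the 9 was 0.661 RPKM, against 0.213 RPKM for all 20230 protein-coding genes and 0.450 RPKM for the 17140 of them above 0.

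The deposited values were mostly lower in the longer genes. From Dlg4 to Dlg2 the RPKM differed 131-fold, while span differed 64.5-fold the other way, from 30.6 kb for Dlg4 to 1973 kb for Dlg2. Exons made up 0.825% of the span of Dlg2, 2.099% of that of Dlgap1 (852 kb) and 2.55% of that of Shank2 (423 kb), against 43.3% for Dlg4, whose 22 annotated transcripts together cover 13.3 kb of exon. Recast as RPM (reads scaled to a library of fixed size, with no gene length) per kilobase of exon, with every counted read taken to lie in exons, the 9 genes differed 4.53-fold, from 19.8 for Shank1 to 4.36 for Shank3. All 9 then passed a level of 1, where 35.4% of all gene IDs with a length and 54% of protein-coding genes did. All 9 also passed 1 per kilobase of the longest transcript, where 36.6% of those gene IDs and 55.8% of protein-coding genes did. The median of the 9 per kilobase of exon was 7.02, against 1.57 for all protein-coding genes and 3.001 for those above 0.

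**Figure D1:**
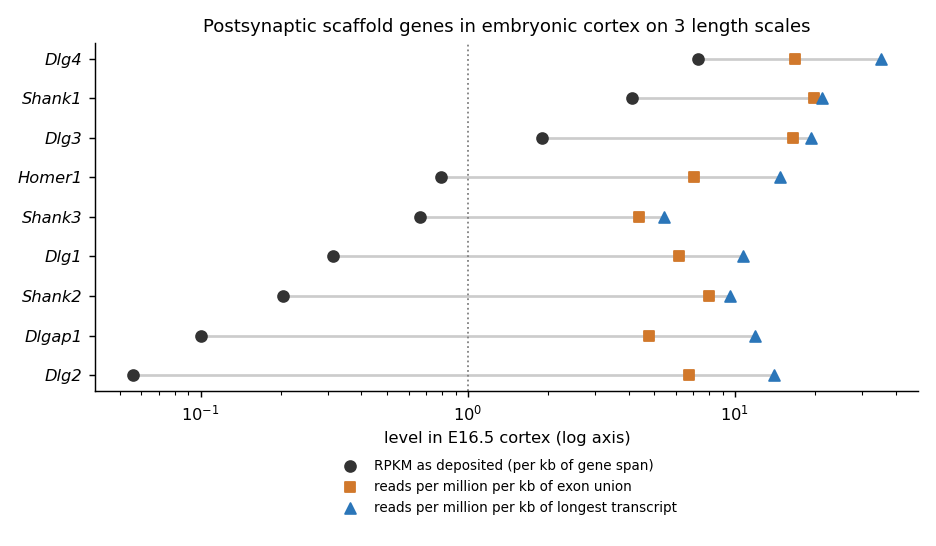
Levels of the 9 scaffold genes in E16.5 cortex on a log axis, each as the authors' mean: circles, deposited RPKM per kilobase of gene span; squares, RPM per kilobase of the union of exons; triangles, the same per kilobase of the longest annotated transcript. The circles run from 0.0556 for Dlg2 to 7.29 for Dlg4, while squares and triangles of all 9 genes lie right of 1, the dotted line.

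The order of the lower genes changed with the length used. Per kilobase of exon, Shank1 (19.8), Dlg4 (16.8) and Dlg3 (16.51) were followed by Shank2 (7.98), Homer1 (7.02), Dlg2 (6.74), Dlg1 (6.16), Dlgap1 (4.76) and Shank3 (4.36). Per kilobase of the longest transcript, Dlg4 led at 35.3, before Shank1 at 21.1 and Dlg3 at 19.2, and Homer1 (14.7), Dlg2 (14.0), Dlgap1 (11.9), Dlg1 (10.8), Shank2 (9.56) and Shank3 (5.44) followed. Dlg2, lowest as deposited, was thus the sixth and the fifth on these scales, and Shank3, the fifth as deposited, was the lowest on both. Without replicate values, no neighbours in these orders can be called different beyond the spread between libraries.

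Each scaffold gene stood above the middle of the genes nearest to it in span, which for the longest genes differed widely in length. Against the 200 protein-coding genes nearest in span and above 0, a comparison added after the values were seen, Dlg4 exceeded 194 and Shank1 exceeded 191. Dlg3 exceeded 165, Shank2 162, Homer1 158, Dlg1 156 and Dlgap1 150 of their own 200. For Dlgap1, of 852 kb, these ran from 502 to 1433 kb. Dlg2, whose nearest 200 genes ran from 520 to 2961 kb, exceeded 128, with a median of 0.0257 RPKM among them. Shank3 exceeded 126, the fewest, with a median of 0.456 RPKM in its own set. Among all protein-coding genes above 0, Dlg4 lay at percentile 92.4 and Dlg2 at 29.2 by deposited RPKM. Per kilobase of exon these were 85.9 for Dlg4 and 66.3 for Dlg2, and the lowest of the 9 was Shank3 at 56.9.

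**Figure D2:**
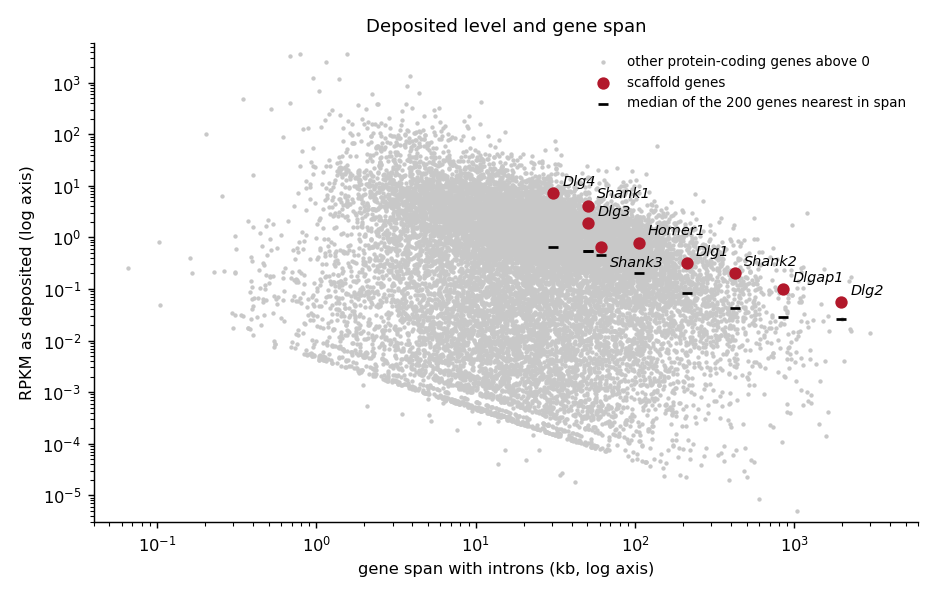
Deposited RPKM (log axis) against gene span with introns in kilobases (log axis) for the 9 scaffold genes in red and all other protein-coding genes above 0 in grey, with a black dash at the median RPKM of the 200 genes nearest in span to each scaffold gene. All 9 red points lie above their dash, from Dlg4 at 7.29 RPKM and 30.6 kb to Dlg2 at 0.0556 RPKM and 1973 kb.

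Within the MAGUKs, Dlg4 held 76.3% of the summed RPKM of Dlg1 to Dlg4, Dlg3 held 19.9%, Dlg1 3.26% and Dlg2 0.582%. Per kilobase of exon the shares were 36.4% for Dlg4, 35.7% for Dlg3, 14.6% for Dlg2, the PSD-93 gene, and 13.3% for Dlg1, which encodes SAP97 and also acts in epithelia. PSD-95 is known to take over from SAP102 as synapses mature, so this pair of genes is of interest at this age. Dlg4 was 3.83-fold above Dlg3 by RPKM (95% counting interval 3.77 to 3.90) and 1.83-fold above it per kilobase of the longest transcript (1.80 to 1.87). Per kilobase of exon the ratio was 1.02 (1.002 to 1.04), and with RefSeq spans as well 0.939, so their order rests on the gene length and span used. Dlg4 was 23.4-fold above Dlg1 by RPKM and 2.73-fold per kilobase of exon (2.68 to 2.79).

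Dlg1 and Dlg2 changed places between scales. Dlg1 was 5.61-fold above Dlg2 by RPKM and 0.914 times its level per kilobase of exon (0.893 to 0.934). Dlg3 was 34.2-fold above Dlg2 by RPKM, 2.45-fold per kilobase of exon and 1.37-fold per kilobase of the longest transcript. Behind these values lay an estimated 41869 reads of Dlg4, 20594 of Dlg2, 18106 of Dlg3 and 12408 of Dlg1 over the 3 libraries. The intervals are exact binomial ones on such reads and cover counting error only. Dlg5, a more distant MAGUK of cell junctions, stood at 1.02 RPKM and 13.5 per kilobase of exon.

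Of the linkers, Dlgap1 was well below its paralog Dlgap4. Dlgap1 stood at 0.0999 RPKM, against 1.91 RPKM for Dlgap4, 0.424 for Dlgap3 and 0.0149 for Dlgap2. The ratio of Dlgap1 to Dlgap4 was 0.0523 by RPKM, 0.140 per kilobase of exon (0.137 to 0.142) and 0.200 per kilobase of the longest transcript. Dlgap4 held 78.0%, 72.5% and 73.7% of the summed level of Dlgap1 to Dlgap4 on these 3 scales, whereas Dlgap1 held 4.08%, 10.1% and 14.7%. Dlgap1 exceeded Dlgap2 on each of them, by 6.70-fold, 2.61-fold and 4.77-fold. Against Dlgap3 it was 0.236 times by RPKM and 0.749 times per kilobase of exon, but 1.74-fold higher per kilobase of the longest transcript. Dlgap5, a relative that acts on the mitotic spindle of dividing cells, stood at 0.368 RPKM and 1.66 per kilobase of exon.

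Shank1 led its family on every scale. It held 82.7% of the summed RPKM of the 3 Shank genes, 61.5% per kilobase of exon and 58.5% per kilobase of the longest transcript. Shank3, whose loss in humans is linked to Phelan-McDermid syndrome, stood at 0.160 times Shank1 by RPKM and 0.221 times per kilobase of exon (0.215 to 0.226). Shank3 was 3.25-fold above Shank2 by RPKM, but 0.547 times Shank2 per kilobase of exon (0.532 to 0.562), so that Shank2 took the middle place there. Shank1 was 20.3-fold above Shank2 by RPKM and 2.48-fold per kilobase of exon. Estimated reads were 38992 for Shank1, 16129 for Shank2 and 7526 for Shank3, the fewest of the 9 genes. The spans of Shank3 and Shank2 were 10.9% and 6.01% longer in RefSeq than in GENCODE, and that of Dlg4 differed by -7.35%, so reads inferred from them are uncertain by about as much.

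Homer1 binds Shank through its EVH1 domain, and its short activity-induced form, Homer1a, lacks the coiled coil that joins the long forms. A value per gene cannot tell these forms apart. Homer1 stood at 0.797 RPKM, against 0.383 for Homer2 and 2.11 for Homer3. Homer1 was 2.08-fold above Homer2 by RPKM and 2.16-fold per kilobase of exon (2.101 to 2.22). Homer1 was 0.377 times Homer3 by RPKM, 0.990 times per kilobase of exon (0.958 to 1.02, an interval that holds 1) and 1.57-fold above it per kilobase of the longest transcript.

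Summed over each family, the layers of the scaffold differed less per kilobase of exon than by RPKM. The sums per kilobase of exon were 46.2 for Dlg1 to Dlg4, 47.0 for Dlgap1 to Dlgap4, 32.1 for the Shank genes and 17.4 for Homer1 to Homer3. By RPKM they were 9.56, 2.45, 4.99 and 3.29 in the same families. The Dlgap sum was thus the lowest of the 4 by RPKM and, only narrowly above that of Dlg1 to Dlg4, the highest per kilobase of exon. No sums were made per kilobase of coding sequence or by reads with no length.

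**Figure D3:**
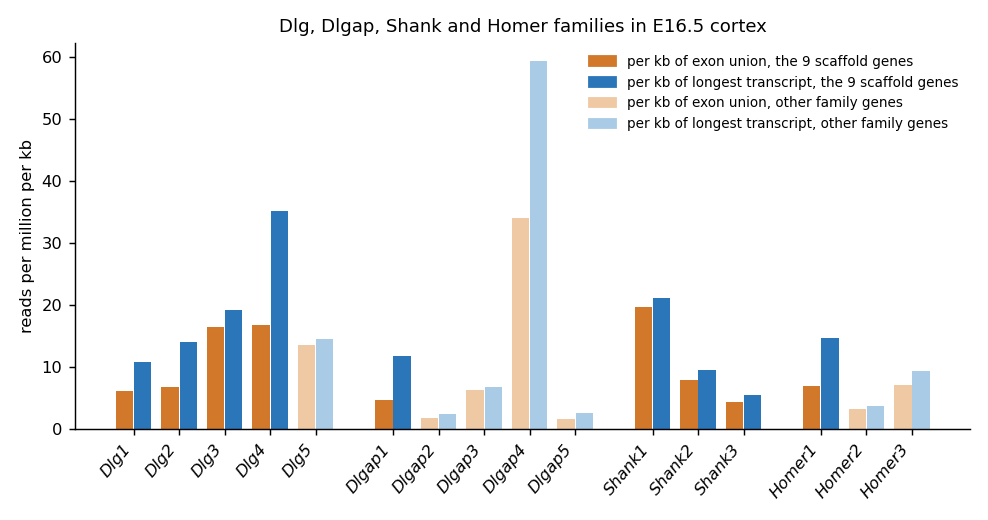
RPM per kilobase in E16.5 cortex for the genes of the Dlg, Dlgap, Shank and Homer families, per kilobase of the union of exons (orange) and of the longest transcript (blue), with the 9 scaffold genes in dark colours and the other family genes in pale ones. Dlgap4 has the tallest pair of bars (34.1 and 59.4), Dlg4, Dlg3 and Shank1 are the tallest among the 9, and Shank3 is the shortest of them (4.36 and 5.44).

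Because the letters before a gene's start bear on how a gene is transcribed, the 250 bases before each RefSeq start were read for the 7 of 9 genes with an entry in the RefSeq promoter table (build GRCm38.p6), 17 windows in all. Shank1 and Shank2 are not among them. The windows ranged from 31 CpG pairs in Shank3 to 1 in a Dlg2 start, against a median of 6 over all 32851 windows. The richest window of each gene held 31 CpG in Shank3, 21 in Homer1, 20 in Dlg1, 19 in Dlg3, 14 in Dlg4, 9 in Dlgap1 and 3 in Dlg2. Those of Dlg1, Dlg4 and Dlg2 overlap annotated exons, by 26, 62 and 80 bases, and the genes differ in their number of windows. For Dlg2, Dlg3, Dlg4 and Homer1 every window lies inside the GENCODE gene, so the stretch before its first base was not read. Shank3, with the most CpG, was the lowest of these 7 genes per kilobase of exon (4.36), and Dlg4, with 14, the highest of them (16.8). By RPKM the lowest of the 7 was instead Dlg2 (0.0556), with the fewest CpG, while Shank3 had 0.661 and Dlg4 was again highest (7.29). A relation of CpG to level was not tested. The Shank3 window lies at chr15:89499358-89499607 on the plus strand, outside annotated GENCODE exons of the gene. The Dlg2 window lies at chr7:92062144-92062393 on the plus strand, before an internal start of the gene and outside its annotated exons. The pair shows both ends of the range, with CpG in capitals.
Shank3: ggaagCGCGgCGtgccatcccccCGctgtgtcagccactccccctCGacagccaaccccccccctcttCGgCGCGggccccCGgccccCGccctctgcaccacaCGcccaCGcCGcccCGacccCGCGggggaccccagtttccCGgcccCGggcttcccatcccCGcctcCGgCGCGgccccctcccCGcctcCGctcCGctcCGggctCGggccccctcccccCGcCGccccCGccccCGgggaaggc
Dlg2: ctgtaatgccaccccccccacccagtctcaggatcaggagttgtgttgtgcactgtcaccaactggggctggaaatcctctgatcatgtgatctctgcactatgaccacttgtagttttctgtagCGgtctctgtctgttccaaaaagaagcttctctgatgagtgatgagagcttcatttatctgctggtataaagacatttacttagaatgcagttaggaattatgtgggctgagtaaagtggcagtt

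The Homer1 window is shown for another feature, picked after it was read. The letters TGACG, the core of the cAMP response element that CREB binds, were searched on both strands (as TGACG or CGTCA). They occurred 3 times in this window, at chr13:93303507-93303756 on the plus strand, with no overlap between matches, which are in capitals. Of all windows, 17.8% held such a match and 0.688% held 3 or more. Of the 17 scaffold windows, 3 held any: this one, 1 of Dlg3 and 1 of Dlg4, the last 2 with a single match. Such a match is a description of the letters and not a binding site, and no stimulated sample is analysed here.
Homer1: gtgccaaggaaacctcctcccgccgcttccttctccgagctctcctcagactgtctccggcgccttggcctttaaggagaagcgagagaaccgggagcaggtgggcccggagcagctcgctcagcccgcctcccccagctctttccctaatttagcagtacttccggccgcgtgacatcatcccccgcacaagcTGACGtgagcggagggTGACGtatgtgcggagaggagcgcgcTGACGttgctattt

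Other genes of the synapse were set beside the scaffolds from 7 lists. Of their 85 genes, 24 reached 1 RPKM, where 18.8% of all gene IDs and 31.6% of protein-coding genes did. Per kilobase of exon 81 reached 1, where 35.4% of all gene IDs with a length and 54% of protein-coding genes did. None of the 85 was listed at 0. The same shares are the background for the counts of each list below. Against scaffold medians of 0.661 RPKM and 7.02 per kilobase of exon, signalling and actin-linked proteins of the density had 0.644 RPKM and 10.1 per kilobase of exon. These medians were close by RPKM only. Of the signalling and actin-linked genes, 9 of 21 were at 1 RPKM. Their highest were the dynein light chain genes Dynll1 at 46.8 and Dynll2 at 30.8 RPKM, which serve many cell functions, and Ppp1r9b, the spinophilin gene, at 16.2 RPKM, while Frmpd4 was lowest at 0.00456 RPKM. Other MAGUK and PDZ adaptors had 4 of 14 at 1 RPKM and a median of 0.396 RPKM (6.39 per kilobase of exon). Among them Lin7c, a partner of the MAGUK Cask, stood at 19.9, Pick1 at 1.91 and Mpp3 at 1.40 RPKM, with Magi2, a gene of 1478 kb, lowest at 0.0511 RPKM. The remaining genes of the Dlg, Homer and Dlgap families had 3 of 7 at 1 RPKM and a median of 0.424 RPKM (6.36 per kilobase of exon).

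Receptors and adhesion proteins that the scaffolds bind were also listed. Glutamate receptor genes had 2 of 14 at 1 RPKM and a median of 0.210 RPKM (5.40 per kilobase of exon). The AMPA receptor auxiliary gene Cnih2 stood at 24.9, the AMPA subunit gene Gria2 at 7.65 and the obligatory NMDA subunit gene Grin1 at 0.865 RPKM, while Grin2a, a subunit of mature NMDA receptors, was lowest at 0.00302 RPKM. Adhesion genes had 3 of 8 at 1 RPKM and a median of 0.396 RPKM (7.70 per kilobase of exon), led by Nlgn2, the neuroligin of inhibitory synapses, at 18.6, Lrrc4b at 4.63 and Nlgn3 at 2.90 RPKM, with Lrrc4c lowest at 0.0247 RPKM. Presynaptic active zone scaffolds had 3 of 13 at 1 RPKM and a median of 0.375 RPKM (5.41 per kilobase of exon), with the vesicle priming gene Unc13a at 4.12, the liprin gene Ppfia3 at 2.39, Bsn, the bassoon gene, at 1.35 and Rims2 lowest at 0.0452 RPKM. Inhibitory postsynaptic genes had 0 of 8 at 1 RPKM and 8 of 8 at 1 per kilobase of exon, with medians of 0.269 RPKM and 8.63 per kilobase of exon. Of these, the scaffold gene Gphn (gephyrin) was lowest at 0.0930 RPKM, with 11.4 per kilobase of exon.

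**Figure D4:**
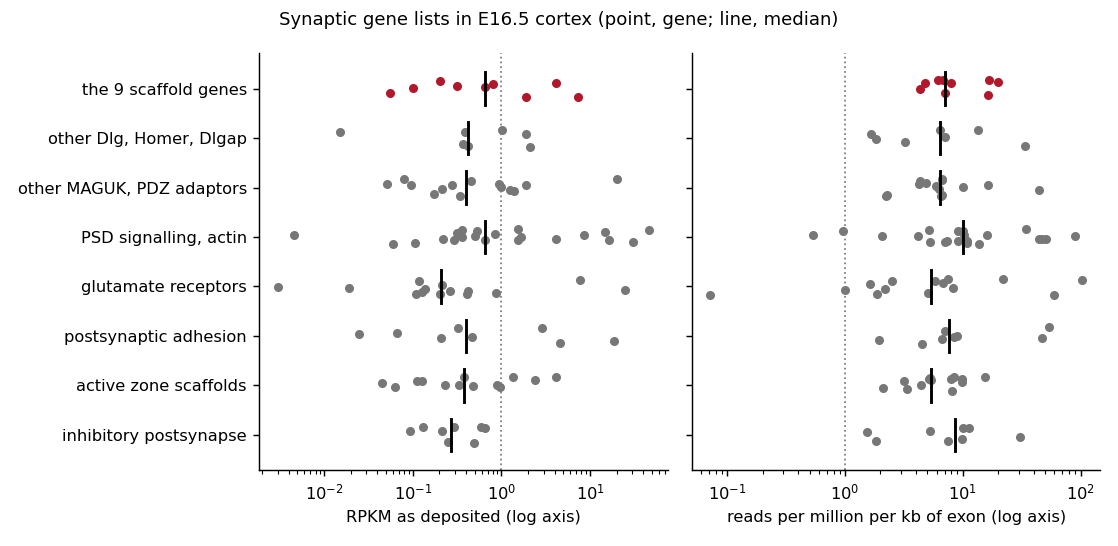
Genes of the 9 scaffolds (red, top row) and of 7 other synaptic lists (grey) in E16.5 cortex, by deposited RPKM on the left and by RPM per kilobase of exon on the right, both on log axes, with a black line at each list's median and a dotted line at 1. The scaffold median is 0.661 on the left and 7.02 on the right, where all 9 red points lie between 4.36 and 19.8.

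Few reads were counted for the other listed genes that overlap the scaffold genes. How reads shared between overlapping genes were counted is not stated, so such reads may not show here. In GENCODE, 8 listed genes overlap 5 of the 9, and the largest, 1700008O03Rik on the strand opposite Shank1, had an estimated 333 reads, 0.855% of those of Shank1. Dlg3, Dlg4, Homer1 and Dlgap1 overlap none.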

How the data were processed

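RNA was sequenced from E16.5 cortex, and the authors deposited 1 column of mean RPKM, to which the labels assign 3 libraries. Per the labels' protocols, Trizol and RNeasy Micro columns gave the RNA for TruSeq libraries. Per the submitters' processing notes, the build was mm9 (NCBIM37) and the tools, with no roles, included DESeq 1.16.0, HTSeq 0.6.0, Cuffdiff 2.0.2, TopHat2 2.0.9 and Bowtie2 2.1.0. The sources used here do not state how introns, strand and shared reads were counted, or whether the libraries are separate animals.

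Gene IDs were matched to GENCODE M21 (GRCm38) for symbols and lengths, found for 32938 of 37991 IDs; since the builds differ, the only coordinates given are those of RefSeq promoter windows (GRCm38.p6). RPM was computed as RPKM times span, per kilobase of exon by the union of exons, and reads by the summed depth of 188 M. A gene with no read could have had up to 3 reads, a level of 0.0160 before division by length; intervals and this floor cover counting error only. Library totals were sought between 44.4 and 95.2 M reads, and 20 nonzero low values lay outside, below the values this range covers. On data simulated for 23585 multi-exon genes, totals of 48, 60 and 80 M were recovered. These data were made and read with the same GENCODE spans, so they cannot show whether those spans match the authors'. Totals of 40, 55 and 90 M, simulated first, came back as 45, 55 and 90 M, the 40 M library lying outside the range; the other totals were then chosen inside it. Python 3.11.15, pandas 2.3.3 and scipy 1.17.1 were used. Members and lists were chosen with earlier results of these data known. Named are all members, paralogs and markers, and of each other list the 3 highest genes and the lowest by RPKM; the 3 highest of the inhibitory postsynaptic list are not reported here. Alternatives were other thresholds, lengths, backgrounds and pseudocounts.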

Additional observations from a re-analysis of the deposited data

How the results depend on the processing

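Dlg4, Shank1 and Dlg3 were the highest 3 of the 9 by RPKM, per kilobase of exon and per kilobase of the longest transcript, but not per kilobase of coding sequence (Dlg4, Homer1, Dlg2) or by reads with no length (Dlg4, Shank1, Dlg2). Genes of the 9 past the threshold numbered 5 at 0.5 RPKM, 2 at 2 RPKM, 9 per kilobase of exon and 9 per kilobase of the longest transcript, in place of 3. Of the 85 other genes, 35 passed at 0.5 RPKM, 15 at 2 RPKM and 81 per kilobase of exon, in place of 24. Of protein-coding genes 41.1% passed at 0.5, 31.6% at 1 and 21.3% at 2 RPKM, and 54% passed 1 per kilobase of exon. The median of the 9, 0.661 RPKM, was 0.487 without the highest gene, 4.13 without genes under 1 RPKM, 7.02 per kilobase of exon and 14.0 per kilobase of the longest transcript. That of the 85 genes, 0.383 RPKM, was 0.358 without the highest of each list, 3.49 without genes under 1 RPKM (which leaves no inhibitory postsynaptic gene) and 6.82 per kilobase of exon. The median percentile of the 9 among genes above 0 was 65.1, and 77.5 among all listed genes, 55.8 among protein-coding genes, 74.6 per kilobase of exon and 79 among genes of like span, the last added after seeing the data.

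Of 14 gene pairs, the first gene was higher in 10 by RPKM. Dlg1 over Dlg2 turned to 0.914 per kilobase of exon, 0.766 per kilobase of the longest transcript, 0.622 per kilobase of coding sequence, 0.602 by reads with no length and 0.906 per kilobase of exon with RefSeq spans. Shank3 over Shank2 turned, in the same order, to 0.547, 0.569, 0.476, 0.467 and 0.572. Homer1 over Homer3 turned to 1.57 by longest transcript, 3.35 by coding sequence and 3.45 by reads, and Dlgap1 over Dlgap3 to 1.74, 2.92 and 2.96. Dlg3 over Dlg2 turned to 0.879 by reads and was 0.991 by coding sequence (counting interval 0.971 to 1.01, which holds 1), and Dlg4 over Dlg3 turned to 0.939 per kilobase of exon with RefSeq spans. Pseudocounts of 0.1 and 1 were added alike to both genes of a pair. They cannot turn an order and so are no check of it. The RefSeq setting divides by the same GENCODE exon length as the exon setting and takes only the span behind the reads from RefSeq. The other length settings keep the GENCODE span and change the length alone. Values per kilobase of exon or transcript assume no intronic reads among those counted, which was not tested.

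No paired analysis was possible because the deposited values are a single mean column, and for the same reason no replicate was left out.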

Other observations

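Some genes outside the naming rule were picked after their values were seen. Cask, a MAGUK of both sides of the synapse with a span of 334 kb, had 0.449 RPKM but 16.4 per kilobase of exon. Grin2b, the NMDA receptor subunit of immature synapses, stood at 0.119 RPKM, against 0.00302 RPKM for Grin2a, and at 2.20 per kilobase of exon, against 0.0720 for Grin2a. Kalrn, a spine guanine nucleotide exchange factor gene with a span of 604 kb, had 0.294 RPKM and 7.38 per kilobase of exon. Agap2, whose long form PIKE-L binds Homer, stood at 14.9 RPKM and 44.8 per kilobase of exon.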
